A study of Mus musculus with 8 samples.

Results

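Ces1d, Ces1e, Ces1f and Ces1g, 4 genes of the carboxylesterase 1 family, were followed through single nuclei of the mouse kidney. They were found by gene symbol among the 32285 genes of the deposited count tables. These tables list 8 Ces1 genes and 19 carboxylesterase genes in all. The 4 genes were picked for the levels they showed in these same libraries, so their levels and fold changes are given as descriptions, without a test.

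The kidneys came from 8 male mice on the C57BL/6J background, 2 in each of 4 groups, with 1 library per mouse. cKOt mice (Bmal1lox/lox/Pax8-rtTA/LC-1) lost the clock gene Bmal1, listed here as Arntl, in the renal tubules, and their Bmal1lox/lox littermates served as controls (Ctrl). Both genotypes carry the floxed alleles, and both drank doxycycline (2 mg/ml, with sucrose at 20 mg/ml) for 2 weeks from 8 weeks of age, so the drug does not separate them. Kidneys were taken at 14 weeks of age under a 12 h light and 12 h dark cycle at zeitgeber time 4 (ZT4, 4 h into the light phase) or ZT16 (4 h into the dark phase). The Pax8 transgene limits the deletion to tubular cells, so vessels, interstitium and immune cells of cKOt kidneys keep an intact gene. A Bmal1lox/lox mouse without the transgenes is the only control, so effects of the transgenes alone and of the deletion cannot be told apart.

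Carboxylesterases of the Ces1 family are serine hydrolases held in the endoplasmic reticulum that cut ester and amide bonds in drugs, pesticides and lipids. The mouse family grew by tandem duplication. Ces1d, also called triacylglycerol hydrolase, mobilises stored triacylglycerol in liver and fat. Ces1e, or egasyn, anchors beta-glucuronidase in the endoplasmic reticulum, Ces1f is a second triacylglycerol hydrolase, and Ces1g handles lipid esters in the liver. In the kidney these enzymes are known from the proximal tubule, the segment that also carries most of the organ's drug metabolism.

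After filtering, 81391 of 82784 barcodes were kept, with 36548873 to 54500820 UMIs (counted RNA molecules) per library and a median of 3003.5 to 4830 UMIs per nucleus. Clusters were named from marker genes and are called "like" a cell type. Of the kept nuclei, 14470 were like the proximal convoluted tubule (PCT) and 11676 like the proximal straight tubule (PST), and these 26146 nuclei are called proximal below. Each library held 2883 to 3759 proximal nuclei. A set of 18 genes of proximal tubule identity summed to 16078 to 21543 CPM there, where CPM is the usual depth-scaled count, taken over the protein-coding UMIs of the same nuclei in that library. Of 80565 barcode sequences, 823 (1.02%) were met in more than 1 library, and 4770 nuclei (5.86%) lay in clusters left unnamed. Arntl, the targeted gene, had levels of 13.8 and 17.2 CPM in Ctrl ZT4, 184 and 185 in Ctrl ZT16, 322 and 213 in cKOt ZT4, and 322 and 286 in cKOt ZT16. Its UMIs were counted per gene, with no way to single out the deleted exons, so this level checks neither the deletion nor the labels.

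The 8 Ces1 genes follow each other on chromosome 8 in the order Ces1a to Ces1h, with no other protein-coding gene starting between the first and the last. The methods name an mm10 reference for the nuclei, while the labels name GRCm39. In the RefSeq annotation of GRCm38.p6, which mm10 corresponds to, Ces1d spans 93166072 to 93197804, Ces1e 93201218 to 93229631, Ces1f 93256236 to 93279766 and Ces1g 93302369 to 93337209. Near-identical copies can share reads. In the GENCODE annotation of GRCm39, among all stretches of 90 bases, an exact copy in any of the 7 other Ces1 genes was found for 0% of the Ces1d, Ces1f and Ces1g gene bodies and for 0.0283% of the Ces1e gene body. Among the genes followed here, only Ces1e and Ces1g had an entry among the RefSeq promoters, so their promoters are shown. They are the 250 bases before the start used in the RefSeq promoter table, at chr8:93229620-93229869 for Ces1e and chr8:93337210-93337459 for Ces1g, GRCm38.p6, minus strand, written 5′ to 3′ with TTATGTAA in capitals. For Ces1e the gene span reaches to 93229631, so the last bases of its window lie inside that span.
Ces1e: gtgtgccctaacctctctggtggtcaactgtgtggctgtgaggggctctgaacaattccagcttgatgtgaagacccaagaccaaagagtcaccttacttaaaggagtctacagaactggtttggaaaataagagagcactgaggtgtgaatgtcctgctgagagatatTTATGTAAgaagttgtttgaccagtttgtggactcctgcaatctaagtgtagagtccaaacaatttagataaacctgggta
Ces1g: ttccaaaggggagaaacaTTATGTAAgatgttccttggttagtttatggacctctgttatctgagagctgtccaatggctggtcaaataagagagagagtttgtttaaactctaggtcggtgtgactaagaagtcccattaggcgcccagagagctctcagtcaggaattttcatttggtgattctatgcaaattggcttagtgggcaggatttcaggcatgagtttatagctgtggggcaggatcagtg

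TTATGTAA is a form of the D-box, the motif bound by the clock output factors of the PAR bZIP family such as Dbp. It begins 81 bases before the start in Ces1e and 232 bases before it in Ces1g. Windows of 250 bases before to 50 after the start were searched on both strands in 32851 RefSeq promoters, 7 of them from 6 Ces1 genes (Ces1d and Ces1f not among them). TTATGTAA lay in 6 of these 7 windows, from the 5 genes Ces1a, Ces1b, Ces1c, Ces1e and Ces1g, and in 0.938% of all windows. Duplicated genes share promoter sequence, so these windows are not independent. The other searched motifs, which do not overlap it, were absent from the 7 windows: CACGTG, the E-box of Bmal1 (7.15% of all windows), TTACGTAA, another D-box form (0.119%), and AGGTCA, a nuclear receptor element (16.3%). A letter match is not evidence of binding, and its absence from a window says nothing about the factor.

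In proximal nuclei, Ces1d stood apart between genotypes. At ZT4 the Ctrl mice had 109 and 121 CPM of Ces1d, and the cKOt mice 14.04 and 31.9. At ZT16 it was 144 and 183 CPM in Ctrl and 23.8 and 22.9 in cKOt. The genotypes did not overlap at either time, and the lowest Ctrl library lay above the highest cKOt library. The group means were 115 ± 8.41 (SD, n = 2) CPM in Ctrl ZT4, 163 ± 27.2 in Ctrl ZT16, 23.0 ± 12.6 in cKOt ZT4 and 23.4 ± 0.659 in cKOt ZT16. These levels rest on 251 to 650 Ces1d UMIs per cKOt library and 1541 to 2926 per Ctrl library.

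Ces1g, scarce throughout, showed the same order. It had 5.67 and 1.99 CPM in Ctrl ZT4, 1.06 and 0.638 in cKOt ZT4, 4.78 and 5.03 in Ctrl ZT16, and 1.24 and 3.04 in cKOt ZT16. Both cKOt libraries lay below both Ctrl libraries at each time, but the group sums were 116 and 173 Ces1g UMIs in Ctrl against 32 and 81 in cKOt, and the Ctrl ZT4 libraries differed from each other by more than the genotype means at ZT16 did.

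Ces1e had like levels in the genotypes. It was 58.0 and 56.0 CPM in Ctrl ZT4 and 46.4 and 59.8 in cKOt ZT4, where the libraries overlap. At ZT16 it was 46.6 and 43.0 CPM in Ctrl and 43.4 and 54.3 in cKOt, which overlap as well.

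Over proximal nuclei as a whole, Ces1f, a triacylglycerol hydrolase like Ces1d, lay on opposite sides of the controls at the 2 times. It had 539 and 528 CPM in Ctrl ZT4 against 268 and 500.2 in cKOt ZT4. At ZT16 it had 396 and 354 CPM in Ctrl against 429 and 459 in cKOt. Neither pair of groups overlapped, yet the cKOt ZT4 libraries differed from each other by more than the means of the genotypes did (384 ± 164 against 534 ± 7.48 CPM, SD, n = 2).

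**Figure D1:**
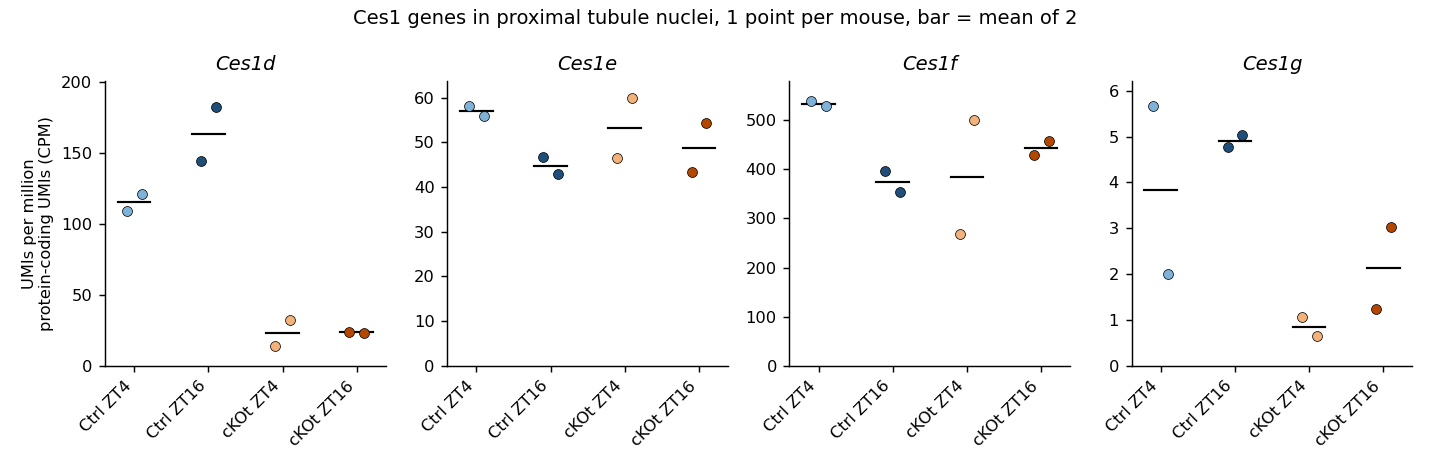
Level of each gene (CPM, linear axis from 0) in proximal nuclei of each of the 8 libraries; points are mice, bars the mean of 2. Ces1d lies between 109 and 183 CPM in the 4 Ctrl libraries and between 14.04 and 31.9 in the 4 cKOt libraries.

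The fitted differences put these levels on 1 scale. All 4 genes passed the filter on low counts (at least 5 UMIs in both libraries of a group) in all 4 comparisons, and values are log2 fold changes ± SE from edgeR over the 8 libraries. For cKOt against Ctrl, Ces1d was -2.33 ± 0.33 at ZT4, 5.03-fold lower, and -2.79 ± 0.34 at ZT16, 6.93-fold lower. Ces1g was -2.14 ± 0.61 at ZT4 and -1.19 ± 0.54 at ZT16. Ces1e was -0.11 ± 0.18 and 0.15 ± 0.18, and Ces1f was -0.48 ± 0.25 and 0.27 ± 0.25. Of the 14372 tested genes, 0.181% had a log2 fold change below that of Ces1d at ZT4, and 0.0838% of 14326 at ZT16. Ces1d was chosen with these levels known, so its place among all genes is a description and no support.

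Ces1d and Ces1g were past 2-fold lower in cKOt at both times, as were 2.68% of all tested genes at ZT4 and 2.52% at ZT16. Groups without overlap and lower in cKOt were found for 3 of the 4 genes at ZT4, against 17.1% of all tested genes, and for 2 of the 4 at ZT16, against 18.7%. Ces1f was the 1 gene higher in cKOt without overlap at ZT16, as were 19.9% of all tested genes, and 0 of the 4 were so at ZT4, against 18.6%. Since the genes were chosen on these contrasts, nothing is read from these counts. edgeR called 0.696% of all tested genes at ZT4 and 0.398% at ZT16 (adjusted p under 0.05).

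Between the times of day Ces1d differed less than between the genotypes. For ZT16 against ZT4 in Ctrl, Ces1d was 0.50 ± 0.32 on the log2 scale, Ces1g 0.38 ± 0.53, Ces1e -0.36 ± 0.18 and Ces1f -0.52 ± 0.25. In Ctrl, Ces1d was higher at ZT16 without overlap, as were 21.8% of all tested genes, and Ces1e and Ces1f were lower without overlap, as were 21.9%. In cKOt, Ces1d was 0.04 ± 0.33, Ces1e -0.10 ± 0.18, Ces1f 0.23 ± 0.25 and Ces1g 1.34 ± 0.62. There Ces1g was higher at ZT16 without overlap, against 15.9% of all tested genes, and 0 of the 4 genes were lower without overlap, against 18.1%. None was past 2-fold lower at ZT16 in Ctrl, where 2.69% of genes were, or in cKOt, where 2.33% were. For all genes, edgeR called 0.279% of 14320 in Ctrl and 0% of 14403 in cKOt, where 994 genes had an unadjusted p under 0.05 and DESeq2 called 74. The comparisons share libraries (the Ctrl ZT4 libraries stand in both the ZT4 genotype and the Ctrl time comparison), so their values are not independent.

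**Figure D2:**
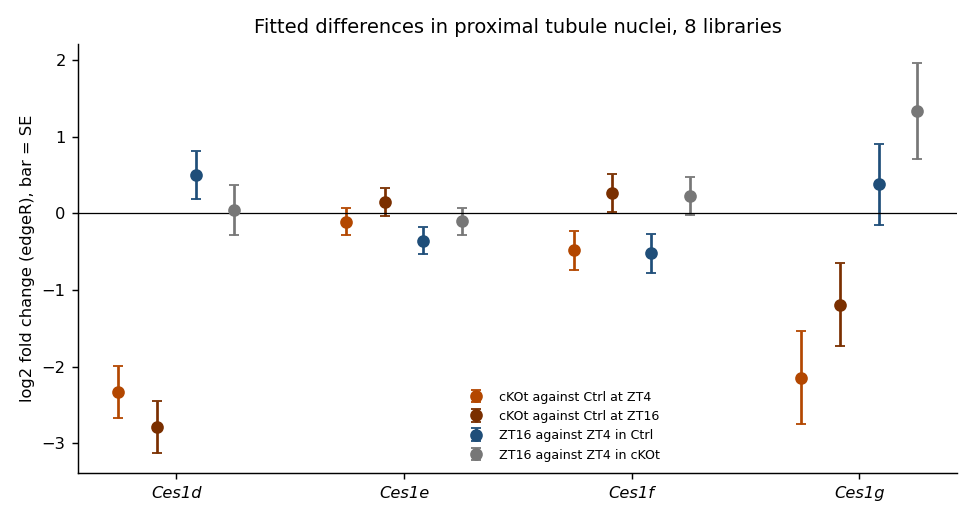
Fitted log2 fold change (points) with its SE (bars) for each gene in each of the 4 comparisons in proximal nuclei, 2 libraries per group. The values of Ces1d for cKOt against Ctrl, -2.33 and -2.79, lie farthest below 0.

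The genotype contrast of Ces1d kept its sign in 20 of 20 alternative settings at ZT4 (-3.05 to -1.87) and 20 of 20 at ZT16 (-3.75 to -2.13). All settings draw on the same 8 libraries, whose genotypes did not overlap, so the kept sign is no further support. The ends of the range at ZT4 came from leaving out cKOt ZT4 replicate 2 (-3.05) or replicate 1 (-1.87). For Ces1f at ZT4 the same libraries gave -1.003 without replicate 2 and -0.11 without replicate 1, so its size rests on which of these libraries is used. Ces1g at ZT4 was -2.70 without Ctrl ZT4 replicate 2 and -1.27 without replicate 1. At ZT16 Ces1g was -0.63 without cKOt ZT16 replicate 1, no longer past 2-fold lower.

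The make-up of the family's UMIs in proximal nuclei differed between genotypes. These are shares of counted molecules, not corrected for gene length. They are parts of the same total, so the lower Ces1d level in cKOt by itself pushes up the shares of the other members. The shares of Ces1f and Ces1e are therefore not read as a further difference between genotypes. Ces1d gave 15.3 and 17.1% of the family's UMIs in Ctrl ZT4 and 24.4 and 31.2% in Ctrl ZT16. In cKOt it gave 4.26 and 5.38% at ZT4 and 4.80 and 4.25% at ZT16, so the genotypes did not overlap. The share of Ces1f was 60.6 to 75.7% in Ctrl and 81.3 to 86.2% in cKOt, that of Ces1e 7.35 to 8.15% against 8.73 to 14.1%, and that of Ces1g stayed under 1% in each library.

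More proximal nuclei of Ctrl than of cKOt held a Ces1d UMI. The share of proximal nuclei with at least 1 was 27.4 to 44.3% over the 4 Ctrl libraries and 5.24 to 12.0% over the 4 cKOt libraries. With each nucleus thinned to 1000 UMIs, which left out 9 of 26146 nuclei, it was 8.38 to 13.1% against 1.04 to 2.08%. In vascular (Vasc)-like nuclei, which are not tubular, the unthinned share was 3.05 to 6.18% in Ctrl and 0.691 to 1.26% in cKOt, at median depths of 1706 to 2586 UMIs against 4537 to 7252 in proximal nuclei. For Ces1f the unthinned shares of proximal nuclei were 63.5 to 75.1% in Ctrl and 53.5 to 70.1% in cKOt, against 7.46 to 16.4% of Vasc-like nuclei. Thinned, they were 21.5 to 30.8% and 18.4 to 29.0%, against 3.95 to 7.13% of Vasc-like nuclei in Ctrl and 4.26 to 6.27% in cKOt. For Ces1d the thinned share of Vasc-like nuclei was 1.47 to 2.70% in Ctrl and 0.368 to 0.763% in cKOt. Thinning left out 473 of 12591 Vasc-like nuclei.

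Along the proximal tubule the genes had different places. PCT-like nuclei were compared with 8043 PST-like nuclei of clusters high in 4 of 6 PST markers and with 3633 PST-like nuclei of a cluster high in all 6, the part nearest to the S3 segment by these markers. The carboxylesterases were left out of the clustering. Ces1e was lowest in this last cluster. It had 64.3 to 76.2 CPM in PCT-like nuclei over the 8 libraries, 38.7 to 64.2 in the PST-like nuclei with 4 markers, and 1.80 to 5.38 in those with all 6. No library of the last range reached the lowest library of the others.

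Ces1f had 349 to 776 CPM in PST-like nuclei with 4 markers, against 241 to 433 in PCT-like nuclei as a whole and 160.5 to 394 in the cluster with all 6 markers. These ranges overlap, but within each of the 8 libraries the 4-marker nuclei had the highest Ces1f level of the 3 sets. The PCT-like clusters were unlike each other in Ces1f: at Ctrl ZT4 its mean was 722 CPM in cluster 6, beside 719.9 in the 4-marker nuclei, and 233 in cluster 7. Ces1g had 0.560 to 9.58 CPM in PCT-like nuclei, and only 3 UMIs in the cluster with all 6 markers over the 8 libraries.

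Ces1d in Ctrl was 101.5 to 233 CPM in PCT-like nuclei, 145 to 199 in the PST-like nuclei with 4 markers and 42.6 to 49.5 in those with all 6. In cKOt the ranges were 13.7 to 32.7, 19.0 to 44.6 and 2.85 to 7.51 CPM. The genotypes did not overlap in any of the 3 sets at either time. From the means of the groups, Ces1d was 4.65-fold lower in cKOt PCT-like nuclei at ZT4 and 13.7-fold lower at ZT16. In PST-like nuclei with 4 markers it was 4.79-fold lower at ZT4 and 4.26-fold lower at ZT16. In the cluster with all 6 markers it was 8.97-fold lower at ZT4 and 7.11-fold lower at ZT16. The cKOt levels of that cluster rest on 32 Ces1d UMIs at ZT4 and 48 at ZT16. The cKOt ZT4 libraries also differed from each other, with 13.9 and 32.7 CPM in PCT-like nuclei, so these folds are rough. In Ctrl PCT-like nuclei Ces1d was 101.5 and 115 CPM at ZT4 and 173 and 233 at ZT16, whereas the PST-like nuclei as a whole had 116 and 125 at ZT4 and 117 and 155 at ZT16.

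**Figure D3:**
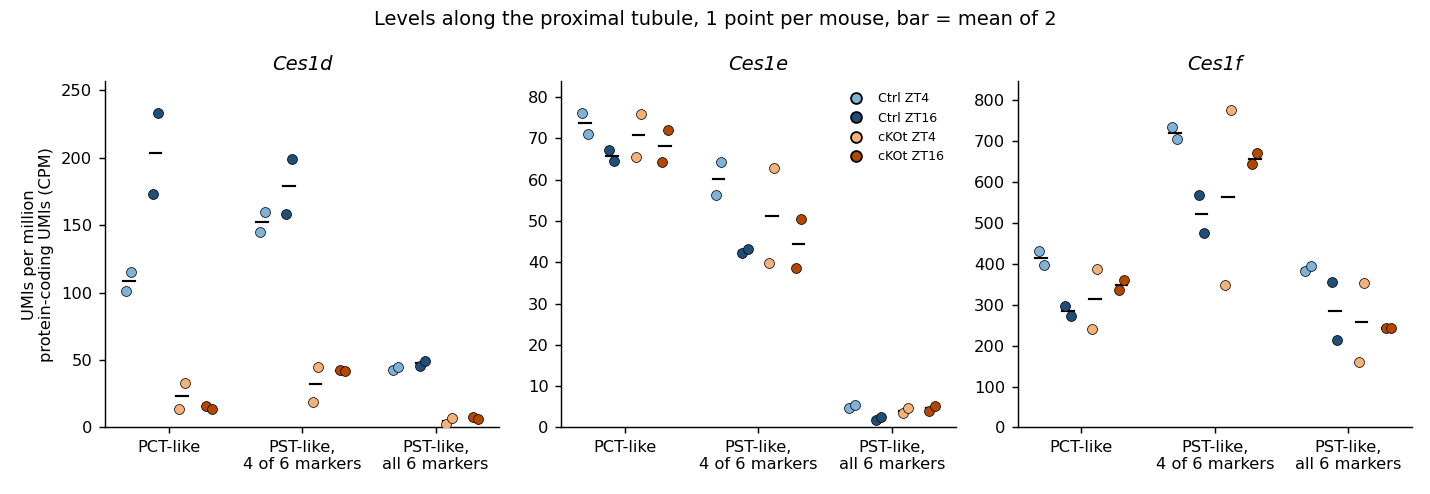
Levels of Ces1d, Ces1e and Ces1f (CPM, linear axis from 0) in PCT-like nuclei and in the 2 sets of PST-like nuclei; points are mice, colours the 4 groups, bars the mean of 2. Ces1e lies at 1.80 to 5.38 CPM in the set with all 6 PST markers, and Ces1d lies lower in cKOt in each set.

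Some clusters held mostly 1 genotype: cKOt made up 78.9% of the nuclei of PCT-like cluster 2, 89.8% of PST-like cluster 4 and 0.568% of PST-like cluster 10. The lower Ces1d level was also seen inside the clusters that both genotypes shared more evenly. In cluster 6, PCT-like and 46.1% cKOt, the mean of Ces1d was 217 CPM in Ctrl and 20.6 in cKOt at ZT16, and 111 and 35.2 ± 22.7 (SD, n = 2) at ZT4. In cluster 9, PST-like and 51.6% cKOt, it was 47.7 and 6.71 CPM at ZT16, and 43.7 and 4.88 at ZT4. Cluster 4 was mostly cKOt, with 463 Ctrl nuclei. Its mean of Ces1d was 131 ± 55.5 CPM in Ctrl and 42.0 ± 0.841 in cKOt at ZT16 (SD, n = 2). At ZT4 it was 102 ± 50.1 in Ctrl and 31.9 ± 18.5 in cKOt. Ctrl ZT16 replicate 1 held 29 nuclei there and Ctrl ZT4 replicate 2 held 21. These means are therefore not set against those of the PST-like nuclei with 4 markers as a whole.

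Over all kept nuclei, 84.6% of the family's 97243 UMIs lay in proximal nuclei, with 80.2 to 87.9% in single libraries. Of all protein-coding UMIs, proximal nuclei held 40.8 to 52.7% in single libraries. The proximal share was 76.9% for Ces1d, 83.5% for Ces1e, 86.2% for Ces1f and 82.7% for Ces1g. In single-nucleus data, RNA set free from broken cells can enter other droplets, and the nuclei were sorted by DAPI, which limits such RNA. Levels outside the proximal tubule are therefore given beside Vasc-like nuclei, and the part of free RNA in them was not tested.

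Pooled over the 8 libraries, each of the 20 named classes had UMIs of Ces1d, Ces1e and Ces1f. For Ces1e the order was PCT-like (69.7 CPM), PST-like (34.8) and then type A intercalated (aIC)-like nuclei (17.8, 95% Poisson interval 13.8 to 22.6), which overlap with cortical collecting duct (CCD)-like nuclei (14.3, 10.9 to 18.4). For Ces1f it was PST-like (511), PCT-like (341), adipocyte (Adip)-like (192) and myeloid (Myel)-like (77.5, 68.3 to 87.5), with the other classes at 36.7 to 72.1 CPM. Ces1g was 4.53 CPM in PCT-like and 1.26 in PST-like nuclei, below 1 CPM in the other named classes, and had 0 UMIs in 6 of them. These intervals cover counting error only.

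**Figure D4:**
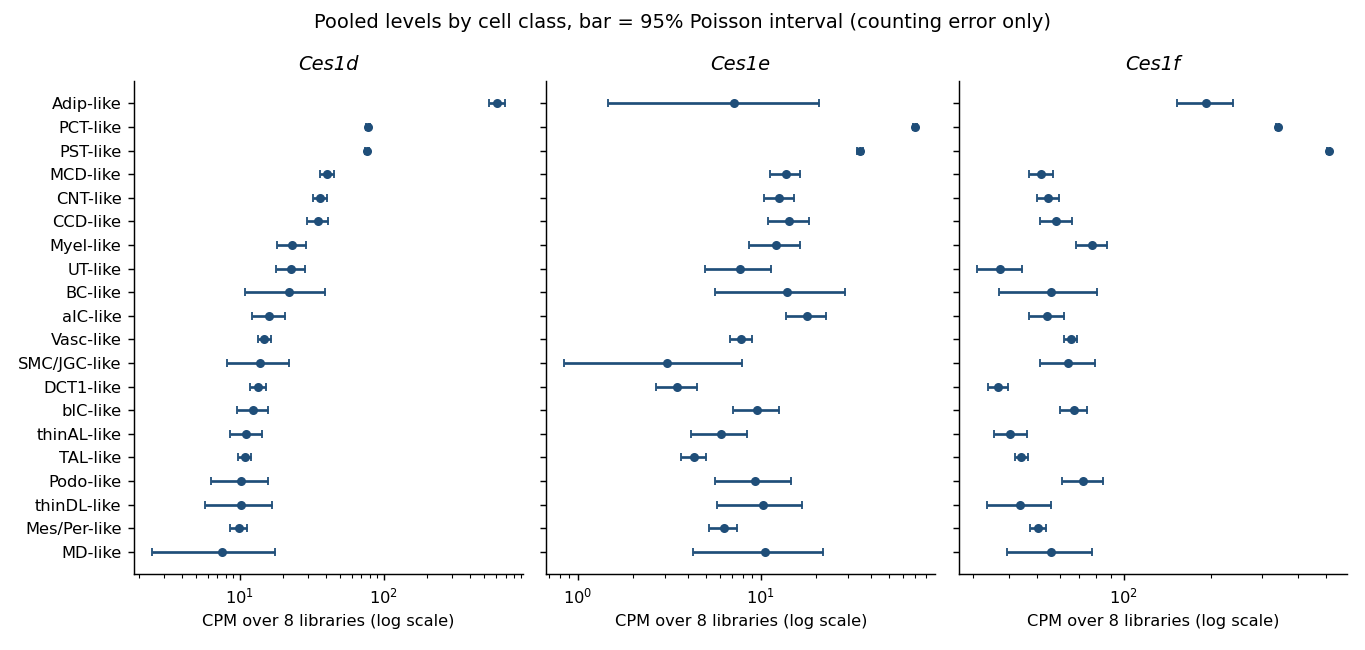
Pooled level of Ces1d, Ces1e and Ces1f (CPM, log axis) in each of the 20 named classes over the 8 libraries, with 95% Poisson intervals for counting error. For Ces1d the Adip-like class leads at 614 CPM, and for Ces1e and Ces1f the proximal classes lead.

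Ces1d had another order, in values pooled over groups whose Ces1d levels differ and which gave unequal shares of the nuclei of a class. Adip-like nuclei led with 614 CPM, followed by PCT-like (77.8) and PST-like (76.6) nuclei, whose intervals (75.7 to 79.9 and 74.7 to 78.6) overlap. Medullary collecting duct (MCD)-like (40.4), connecting tubule (CNT)-like (36.1) and CCD-like nuclei (34.9) came next, also with overlapping intervals, and the other classes had 7.57 to 23.0 CPM. The order within 1 group can differ: in Ctrl ZT16, CNT-like nuclei had 115 and 124 CPM of Ces1d and MCD-like nuclei 117 and 61.4.

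The Adip-like class held 76 nuclei, of which 66 came from the cKOt ZT4 libraries, and no other library reached 20. Scrublet marked 19.7% of them as doublets, against 5.37% of all nuclei. Ces1d was 263 CPM in the 25 Adip-like nuclei of cKOt ZT4 replicate 1 (35 UMIs) and 765 in the 41 of replicate 2 (175 UMIs). Proximal nuclei of the same libraries had 14.04 and 31.9 CPM. Fat cells are not tubular, and the transgene does not act in them by design.

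In several classes of the distal nephron Ces1d differed between times of day in Ctrl. In CNT-like nuclei it was 17.5 and 18.6 CPM in Ctrl ZT4 and 115 and 124 in Ctrl ZT16. The means differ 6.62-fold and rest on 40 and 251 UMIs. In cKOt it was 3.27 and 8.84 CPM at ZT4 and 13.4 and 3.81 at ZT16, so the times overlapped and every cKOt library lay below every Ctrl library.

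CCD-like nuclei, principal cells of the cortical collecting duct, had 36.8 and 28.0 CPM of Ces1d in Ctrl ZT4, and 88.5 and 69.4 in Ctrl ZT16. In distal convoluted tubule (DCT1)-like nuclei, a cluster that also scored high for the late distal convoluted tubule and may hold both, the values were 7.90 and 15.2 CPM in Ctrl ZT4 and 41.1 and 32.0 in Ctrl ZT16. MCD-like nuclei had 42.3 and 52.2 CPM in Ctrl ZT4 and 117 and 61.4 in Ctrl ZT16. ZT16 was higher without overlap in all 3 classes, by 2.43-fold, 3.17-fold and 1.89-fold of the means. In the cKOt libraries the highest Ces1d level was 8.07 CPM in CCD-like, 4.05 in DCT1-like and 15.8 in MCD-like nuclei, each below the lowest Ctrl library. These cKOt levels rest on few Ces1d UMIs per group. At ZT4 and ZT16 there were 3 and 5 in CCD-like, 8 and 15 in DCT1-like and 15 and 10 in MCD-like nuclei.

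Thick ascending limb (TAL)-like nuclei had 12.1 and 14.5 CPM in Ctrl ZT4, 20.1 and 22.2 in Ctrl ZT16 and 1.60 to 3.90 in cKOt. Vasc-like nuclei had 19.5 and 15.4 CPM in Ctrl ZT4, 30.6 and 29.2 in Ctrl ZT16 and 3.99 to 5.67 in cKOt. The transgene does not act in vessels by design, and the part of RNA from other cells in the Vasc-like level was not tested. Over the classes with more than 3 Ces1d UMIs and both libraries in each group, the mean was lower in cKOt in 13 of 13 classes at ZT4 (12 without overlap) and in 15 of 15 at ZT16 (13 without overlap). For ZT16 against ZT4 in Ctrl it was higher in 14 of 18 classes (10 without overlap) and lower in 4 (1 without overlap). The classes share the same libraries, and the share of all genes without overlap was computed in proximal nuclei alone, where it was 21.8% higher and 21.9% lower for the times in Ctrl, 17.1% and 18.7% lower in cKOt at ZT4 and ZT16.

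**Figure D5:**
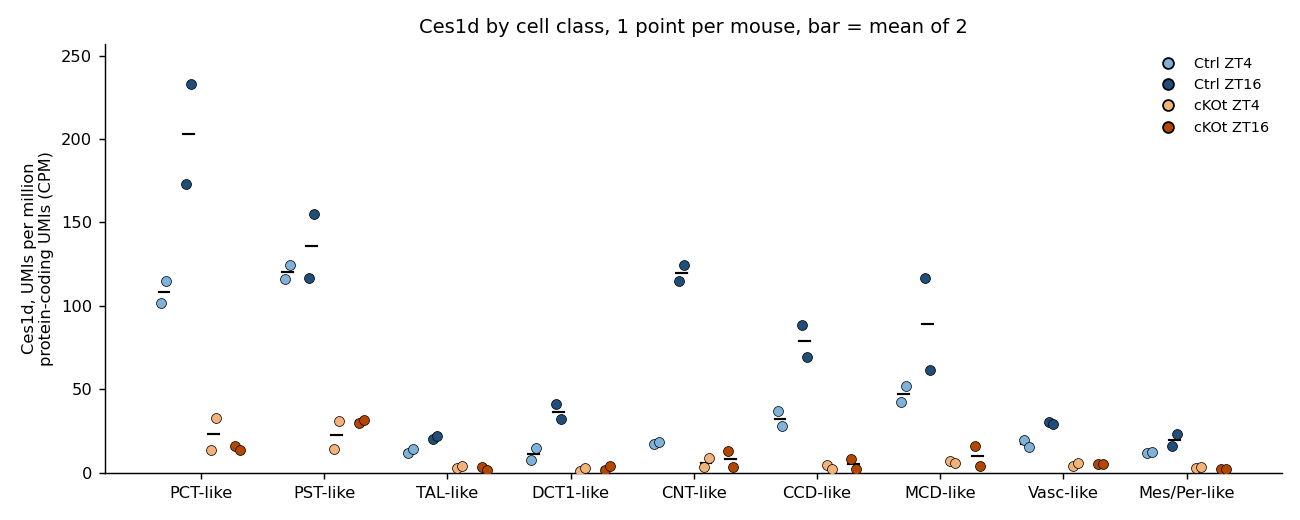
Level of Ces1d (CPM, linear axis from 0) in 9 cell classes; points are mice, colours the 4 groups, bars the mean of 2. CNT-like nuclei of Ctrl ZT16 stand at 115 and 124 CPM against 17.5 and 18.6 in Ctrl ZT4, and the cKOt libraries lie low in each class.

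The ratio of Ces1d to Ces1f UMIs, summed over the libraries of a group, differed between classes. In Ctrl it was 0.217 Ces1d UMIs per Ces1f UMI at ZT4 and 0.425 at ZT16 in proximal nuclei, and 0.218 and 0.531 in Vasc-like nuclei. In cKOt Vasc-like nuclei it was 0.0845 at ZT4 and 0.0751 at ZT16, against 0.0601 and 0.0531 in proximal nuclei. Within the proximal tubule the ratio was 0.674 in PCT-like and 0.304 in PST-like nuclei of Ctrl ZT16.

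CNT-like nuclei of Ctrl had 0.288 Ces1d UMIs per Ces1f UMI at ZT4 and 2.13 at ZT16, the latter 251 against 118 UMIs. The ratios at ZT16 were 1.54 in CCD-like, 1.64 in MCD-like and 1.27 in DCT1-like nuclei. At ZT4 they were 0.393, 1.10 and 0.264. The ZT16 ratios of these classes stood above those of proximal and Vasc-like nuclei. Urothelium (UT)-like nuclei had 1.64 at ZT16 as well (41 against 25 UMIs) and 0.576 at ZT4, and Adip-like nuclei had 3.28 in cKOt ZT4, on 210 against 64 UMIs. Type B intercalated-like nuclei of Ctrl showed no such rise, with 0.298 at ZT4 and 0.263 at ZT16, on 25 and 20 Ces1d UMIs.

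The other members were read in CNT-like nuclei too, where the share of all genes without overlap was not computed. Ces1f had 50.5 and 72.8 CPM in Ctrl ZT4 and 52.6 and 60.5 in Ctrl ZT16, which overlap. Ces1e had 11.3 and 13.8 CPM in Ctrl ZT4 and 23.8 and 25.8 in Ctrl ZT16, on 28 and 52 UMIs. In cKOt CNT-like nuclei Ces1e was 4.93 to 11.4 CPM.

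Over the 8 libraries of proximal nuclei, the genes most like each member were ranked by Pearson's r of log2(CPM + 1) among 8627 or 8628 protein-coding genes with a mean of at least 10 CPM. With 8 points and so many genes, high values are met for nearly any pattern, and depth and nuclei are shared by all genes of a library. For Ces1d they were Lcp1 (0.975), an actin-bundling protein, Adgrb3 (0.975), an adhesion G protein-coupled receptor, and Anks1b (0.973). Adgrb3 had 66.8 to 113 CPM in Ctrl and 13.5 to 16.2 in cKOt. For Ces1e they were Luc7l2 (0.968), Pot1a (0.963) and Zfp707 (0.948), for Ces1f Zfp438 (0.964), Gpr180 (0.963) and Dmac2l (0.962), and for Ces1g Ccnh (0.942), Phldb1 (0.937) and Raph1 (0.930). Among the members, r was 0.743 for Ces1d with Ces1g, 0.731 for Ces1e with Ces1f, and -0.12 to 0.31 for the other pairs.

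Of the 15 other carboxylesterase genes, 7 or 8 could be tested in a comparison and edgeR called 0 of them in each of the 4. Unadjusted p under 0.05 was reached by 0 to 2 of them per comparison, and DESeq2 called 1 for cKOt against Ctrl at ZT16 and 0 elsewhere. The median log2 fold change of those tested was -0.35 at ZT4 and -0.01 at ZT16 for cKOt against Ctrl. Summed over the 15 genes, the level was 65.0 and 52.4 CPM in Ctrl ZT4 and 38.8 and 42.3 in cKOt ZT4. At ZT16 the sum was 61.8 and 113 CPM in Ctrl and 44.8 and 43.7 in cKOt, a difference not tested for the 15 genes as a set. Ces2c, an intestinal and renal carboxylesterase with the most UMIs of these, had 37.8 and 32.9 CPM in Ctrl ZT4, 37.5 and 79.1 in Ctrl ZT16, 21.7 and 22.6 in cKOt ZT4 and 24.5 and 20.2 in cKOt ZT16. Its log2 fold change for cKOt against Ctrl was -0.67 ± 0.32 at ZT4 (edgeR adjusted p = 0.663) and -1.39 ± 0.32 at ZT16 (adjusted p = 0.179). Ces2h was -0.24 ± 0.20 at ZT4 and -0.10 ± 0.20 at ZT16, and Ces2e, with 108 UMIs in proximal nuclei, was -0.35 ± 0.51 and -0.59 ± 0.47. The other Ces1 genes were nearly silent, with 2 (Ces1a), 6 (Ces1b), 22 (Ces1c) and 28 (Ces1h) UMIs over all nuclei.

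Among 21 other hydrolases of lipid esters and related lipids, 19 were tested. Faah, which breaks down fatty acid amides, was the 1 called: it was higher in cKOt at ZT4 (log2 fold change 0.81 ± 0.13, edgeR adjusted p = 0.0331) and at ZT16 against ZT4 in Ctrl (0.99 ± 0.13, adjusted p = 0.0315). Its level was 46.1 and 43.3 CPM in Ctrl ZT4, 98.9 and 80.3 in Ctrl ZT16 and 77.0 to 81.5 in cKOt. Both calls were lost when any 1 of the libraries of the compared groups, or of cKOt ZT16, was left out (adjusted p of Faah 0.0717 to 0.245 and 0.0832 to 0.229). The median log2 fold change of the list was -0.06 at ZT4 and -0.14 at ZT16 for cKOt against Ctrl, beside 0.01 for all genes tested in each comparison. At ZT16 between genotypes 6 of the 19 had an unadjusted p under 0.05 and DESeq2 called 1, and between times in cKOt both counts were 0. Of 18 genes of triacylglycerol synthesis and lipid droplets, 17 were tested and 0 were called by edgeR in each comparison, with 2 or 3 at an unadjusted p under 0.05 and 0 to 2 called by DESeq2. Its median log2 fold change was -0.04 at ZT4 and -0.30 at ZT16 for cKOt against Ctrl.

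Of 21 nuclear receptors and bZIP factors of drug and lipid metabolism, edgeR called 4 for cKOt against Ctrl at ZT4. At ZT4 the clock repressors Nr1d1 (-3.28 ± 0.30, adjusted p = 0.00205) and Nr1d2 (-2.82 ± 0.24, adjusted p = 0.0013) and the D-box factor Dbp (-4.20 ± 0.40, adjusted p = 0.00245) were lower in cKOt, and Ppard, a fatty acid receptor, was higher (2.30 ± 0.40, adjusted p = 0.0448). At ZT16 Nr1d2 was lower (-1.78 ± 0.24, edgeR adjusted p = 0.0223). Dbp had 41.4 and 24.3 CPM in Ctrl ZT4 and 1.02 to 2.45 in the other 6 libraries. Leaving out 1 library lost the call of Ppard for 7 of the 8 libraries (adjusted p 0.0636 to 0.303) and that of Nr1d2 at ZT16 for Ctrl ZT16 replicates 1 and 2 and cKOt ZT16 replicate 1 (0.093 to 0.105). In PCT-like nuclei alone Nr1d2 at ZT16 was -0.89 and not called either (edgeR adjusted p = 0.321).

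For ZT16 against ZT4 in Ctrl, Nr1d1 (-5.58 ± 0.37, adjusted p = 0.00143), Dbp (-4.10 ± 0.40, adjusted p = 0.00678) and Nr1d2 (-2.01 ± 0.23, adjusted p = 0.0176) were lower by edgeR. Without 1 of the libraries compared, the call of Dbp was lost for 3 of them, Ctrl ZT4 replicate 1 and both of Ctrl ZT16 (adjusted p 0.0588 to 0.137), and that of Nr1d2 for each of the 4 (0.0972 to 0.147). In cKOt 0 of the 21 were called, with 5 at an unadjusted p under 0.05 and 2 called by DESeq2.

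Marker lists of proximal identity, injury and other cell types were read in the same nuclei. Of 18 identity genes edgeR called 1: Slc6a19, a neutral amino acid transporter, was lower at ZT16 in Ctrl (-1.46 ± 0.22, adjusted p = 0.0426), a call lost without any 1 of 6 libraries, the 4 Ctrl and the 2 cKOt ZT16 ones (0.0915 to 0.281). At an unadjusted p under 0.05 there were 4 and 5 identity genes for the genotypes at ZT4 and ZT16, and 5 and 3 for the times in Ctrl and cKOt. DESeq2 called 0 and 1 for the genotypes, and 4 and 0 for the times. Of 10 injury genes 6 were tested, and 0 were called by either tool or reached an unadjusted p under 0.05. Their summed level was 132 to 424 CPM over the libraries.

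Adipocyte and liver markers were also counted in proximal nuclei, since Ces1d is abundant in both tissues. The 7 adipocyte markers summed to 2.41 and 2.66 CPM in Ctrl ZT4, 4.29 and 3.44 in Ctrl ZT16, 3.92 and 9.13 in cKOt ZT4 and 2.26 and 2.18 in cKOt ZT16, with 16 Adipoq and 1 Lep UMIs in all proximal nuclei. The cKOt ZT4 library with 9.13 CPM of these markers was also the one with the higher Ces1d level of its pair, and the part of fat RNA in that level was not tested. The 8 hepatocyte markers summed to 88.5 to 177 CPM, with 8659 UMIs of Ttr, 7614 of Apob, 1328 of Fga, 218 of Serpina1a, 193 of Apoa1, 103 of Alb, 44 of Fgb and 11 of Cps1. edgeR called 0 genes of either list in each comparison. At an unadjusted p under 0.05 there were 3 and 2 adipocyte markers for the genotypes at ZT4 and ZT16, and 2 and 4 for the times in Ctrl and cKOt, with 1 called by DESeq2 in the last. For the hepatocyte markers these counts were 4, 1, 2 and 0, and DESeq2 called 2 and 1 for the genotypes at ZT4 and ZT16 and 0 for the times.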

How the data were processed

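Whole-kidney nuclei were counted by the authors with Cell Ranger (the labels name version 7.1.0), and the deposited matrices hold raw UMI counts per gene and nucleus. The sources used here do not say if introns counted. The 4 genes and the gene lists were chosen with earlier results of these data known.

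Kept nuclei had 500 or more genes, 800 or more UMIs and a mitochondrial share up to 2%. They were clustered with leidenalg 0.10.2 on 1000 principal components of 2000 variable genes, with the 19 carboxylesterases left out, and named from marker genes. Scrublet in scanpy 1.11.5 marked 4367 nuclei (5.37%) as doublets, which were kept and left out as an alternative.

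UMIs of proximal nuclei were summed per library and tested with edgeR 4.0.16 (quasi-likelihood, TMM on protein-coding genes, at least 5 counts in both libraries of 1 compared group, all 8 libraries in 1 model, Benjamini-Hochberg adjustment, threshold 0.05). DESeq2 1.42.0 was an alternative. The standard error was the log2 fold change over the root of F. The test was checked on simulated data. The labels do not number the mice beyond replicates 1 and 2. The p-values rest on the spread between the 2 mice of a group, pooled over all groups and drawn together across genes.

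Named genes were the 4 members, list genes called in a comparison (at most 5 per list), the 3 other carboxylesterases with most UMIs, the 3 genes most like each member, and Arntl. A list gene that met this rule is not reported here. Other alternatives were the low-count filter, the libraries in the fit, PCT-like or PST-like nuclei alone, all nuclei, 50 principal components, a replicate block, thinning to 1000 UMIs and leaving out each library.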

Additional observations from a re-analysis of the deposited data

Results flagged for a closer look

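Ces1f in proximal nuclei was marked for a closer look because its libraries moved opposite ways at the 2 times. Its log2 fold change for cKOt against Ctrl was -0.48 at ZT4, where both cKOt libraries lay below both Ctrl libraries, and 0.27 at ZT16, where both lay above. PCT-like nuclei showed the same order, but neither PST-like set did so at both times. In PST-like nuclei with 4 markers the genotypes overlapped at ZT4 (349 and 776 CPM in cKOt, 706 and 734 in Ctrl). At ZT16 cKOt lay above there. In the cluster with all markers cKOt lay below at ZT4. At ZT16 the genotypes overlapped there, with a lower mean in cKOt (243 against 285 CPM). The part of unequal cluster make-up in the pooled values was not tested. An interaction term over 14633 genes called 3 (559 at an unadjusted p under 0.05). For Ces1f, chosen on these contrasts, its value is not given, so the difference between the times is left as not tested.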

How the results depend on the processing

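With 2 mice per group, counts of calls depended on the setting, and the cause was not tested. For cKOt against Ctrl at ZT4, 100 genes were called, against 301 with DESeq2, 173 without the low-count filter, 23 with only the 4 libraries compared and 63 with 50 principal components. Leaving out 1 library gave 35 (without Ctrl ZT4 replicate 1) to 104, with 37 without Ctrl ZT4 replicate 2 and 60 without either cKOt ZT16 library. At ZT16, 57 became 227 with DESeq2, 98 without the filter, 93 with only the 4 libraries, 27 in PCT-like nuclei, 28 in all nuclei and 29 with 50 components. Leaving out 1 library gave 6 to 84 (6 and 8 without cKOt ZT16 replicates 1 and 2, 32 and 16 without those of Ctrl ZT16). For the times in Ctrl, 40 became 238 with DESeq2, 87 without the filter, 66 in PCT-like and 16 in PST-like nuclei, 24 in all nuclei and 19 with 50 components, and 6 to 80 with 1 library left out. Any Ctrl or cKOt ZT16 library left out gave 6 to 13, and either cKOt ZT4 library 77 or 80. For the times in cKOt, 0 became 74 with DESeq2, 5 without the filter, 2 in PCT-like nuclei and 0 to 2 with 1 library left out. For the levels of Ces1d, Ces1e, Ces1f and Ces1g by cell class, the proximal share of the family's UMIs, a median of 85.5% over libraries, was 70.3% with 50 components and 75.7% after thinning.

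With the replicate block, the counts were 94, 48, 34 and 0, and the call of Slc6a19 was lost (adjusted p = 0.0623). Same-numbered libraries correlated at 0.56 and 0.38 between genotypes within a time, and at -0.29 and 0.29 between times. The signs between times were opposite, so the numbers give no common pairing across times. The block held 1 replicate effect for both times, so a pairing between genotypes within a time was not tested. With the numbers crossed in Ctrl, chosen after seeing the data, 136 genes were called between times. Among all values compared between settings, 1108 kept their call or stayed within the spread, 96 moved, 60 lost their call and 0 called values turned direction. These values were not only those of single genes, so the counts do not measure how stable single genes were. Values without a call did change sign. Ces1d between times in cKOt ran from -0.61 to 0.76, Ces1f there from -0.14 to 0.75 and Ces1e from -0.33 to 0.10. Ces1g between times in Ctrl ran from -0.17 to 1.31, and Ces1e between genotypes from -0.32 to 0.05 at ZT4 and from -0.07 to 0.34 at ZT16. Nr1d1 at ZT4 lost its call in all nuclei (adjusted p = 0.0753).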
